A study of Homo sapiens with 6 samples.

Results

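The genes described here are the clustered histone genes, which code for the linker histone H1 and the core histones H2A, H2B, H3 and H4. They were taken by symbol (H1-1 to H1-6 and every symbol starting H2AC, H2BC, H3C or H4C followed by a digit), with 13 pseudogenes left out. This gave 70 genes of the 60671 in the count table: 6 for H1, 17 for H2A, 19 for H2B, 13 for H3 and 15 for H4. By position, 34 lie in the proximal part of the chromosome 6 cluster, 21 in its distal part, 11 in the chromosome 1q21 cluster and 2 at 1q42, while H4C16 lies on chromosome 12 and H2BC12L on chromosome 21.

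The samples were 3 human non-small cell lung cancer lines with the genotype label WT, A549, HCC827 and H1975, each treated for 48 h with 10 µg/mL AL-X or, as the control, with DMSO. The compound, labelled AL-X or 9α,11αOH-KA, is a dihydroxy derivative of the diterpene kaurenoic acid. Each line gave 1 AL-X library and 1 DMSO library, 6 in all, from total RNA made into libraries with an mRNA kit. The comparison asks what AL-X changed in each line and across the 3 lines, and a line is the only unit of replication.

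Clustered histone genes supply the histones that package newly copied DNA, and their transcription is tied to S phase through NPAT, a substrate of cyclin E with CDK2. Their mRNAs are an exception among coding transcripts: most have no introns and no poly(A) tail and end instead just after a conserved stem-loop, which the stem-loop binding protein SLBP recognises and the U7 snRNP helps to cut. Polyadenylated forms also exist, made when a transcript runs past the stem-loop to a downstream poly(A) site. An mRNA library therefore reports mainly the polyadenylated forms and whatever unselected RNA is carried along, so the counts below are not the total histone mRNA of the cells.

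The sequences that set these mRNAs apart are shown first, since they bear on what the library could capture. The stem-loop of 16 bases was searched in the GENCODE release 29 transcripts of the 68 histone genes that have them, in the form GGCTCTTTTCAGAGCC or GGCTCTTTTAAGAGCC. The transcripts of 21 genes hold it, 17 with C and 4 with A in the loop, and in 15 of them the annotated transcript goes on for 100 or more bases after it, up to 1917 bases in H2BC26. A gene without a match may still have the stem-loop. Many annotated models are short, such as the 381 bases of H2BC12, and may stop before it, and other forms of the stem-loop were not searched. Below, the stem-loop is in capitals with 5 bases on either side, on the GRCh38 build, from an annotated transcript that ends soon after it (H2AC18, chr1:149842218-149842243, minus strand), one that runs on by 1729 bases (H2BC21, chr1:149886183-149886208, minus strand) and one with the other loop (H2BC5, chr6:26158582-26158607, plus strand).
H2AC18: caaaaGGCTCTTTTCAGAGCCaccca
H2BC21: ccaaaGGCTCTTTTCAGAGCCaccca
H2BC5: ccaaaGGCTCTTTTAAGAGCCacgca
H2AC18 and H2BC21 hold the same 16 bases, although their annotated transcripts differ in how far they continue.

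Promoters are given for the genes whose counts differed most between AL-X and DMSO or between lines, taken from RefSeq on GRCh38.p14, which had 64 of the 70 genes. Each runs from 250 bases before to 50 bases after the annotated start, with matches on either strand to the TATA box (TATAAA), to the CCAAT box and to the octamer ATTTGCAT in capitals (overlapping matches run together). The windows are those of H2AC18 (chr1:149842701-149843000, minus strand), H2BC12 (chr6:27146809-27147108, minus strand) and H4C14 (chr1:149832407-149832706, plus strand).
H2AC18: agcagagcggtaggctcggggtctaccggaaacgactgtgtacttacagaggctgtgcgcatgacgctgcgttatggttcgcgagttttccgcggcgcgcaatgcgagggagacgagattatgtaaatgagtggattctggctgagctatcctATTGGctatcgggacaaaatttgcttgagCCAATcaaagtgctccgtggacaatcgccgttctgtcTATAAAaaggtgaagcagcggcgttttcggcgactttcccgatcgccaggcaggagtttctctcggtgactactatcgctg
H2BC12: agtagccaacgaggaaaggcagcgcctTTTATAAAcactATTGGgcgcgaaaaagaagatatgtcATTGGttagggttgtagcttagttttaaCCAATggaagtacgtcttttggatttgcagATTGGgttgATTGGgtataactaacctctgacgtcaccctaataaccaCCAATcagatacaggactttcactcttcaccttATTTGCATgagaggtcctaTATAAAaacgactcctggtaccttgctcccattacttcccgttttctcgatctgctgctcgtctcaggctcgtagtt
H4C14: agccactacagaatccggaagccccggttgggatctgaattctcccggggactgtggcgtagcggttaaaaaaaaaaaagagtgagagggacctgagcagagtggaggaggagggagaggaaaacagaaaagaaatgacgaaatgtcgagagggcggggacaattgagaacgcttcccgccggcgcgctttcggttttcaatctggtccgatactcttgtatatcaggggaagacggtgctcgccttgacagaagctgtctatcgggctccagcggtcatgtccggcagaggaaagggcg
TATAAA is in 65.6% of the 64 histone promoters and 11.95% of all 27305 promoters of this length, CCAAT in 84.4% and 35.7%, and the octamer in 40.6% and 1.80%. The octamer falls in 11 of 16 H2A and 14 of 18 H2B windows and in none of the 6 H1 or 13 H4 windows, while CCAAT is in all H1, H2A, H2B and H3 windows and in 3 of 13 H4 windows. The H4C14 window, which is the same over all 300 bases as that of its copy H4C15, holds none of the 3 motifs. The windows of H2AC18 and H2AC19 share a run of 299 bases.

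Library totals ranged from 98139178 to 126840915 counts, and mitochondrial transcripts took 0.0201%, 0.656% and 0.0535% of counts in the AL-X libraries of A549, HCC827 and H1975, against 6.87%, 6.69% and 6.41% in the DMSO libraries of those lines. Summed epithelial markers (EPCAM, CDH1, KRT8, KRT18 and KRT19) stood between 2125 and 4368 counts per 1000000 counts (CPM) in every library, against at most 0.623 CPM for leukocyte, 3.41 CPM for endothelial and 16.1 CPM for fibroblast markers. CPM here is scaled by the trimmed mean of M-values (TMM), and the A549 AL-X library had the smallest factor, 0.557, against 1.12 for A549 DMSO. With library totals as the only scaling, the median log2 fold of all genes tested moved to -1.25 in A549, 0.03 in HCC827 and -0.60 in H1975, against -0.28, -0.07 and -0.20 with TMM. The median over histone genes was 1.48, 1.02 and -0.56 in A549, HCC827 and H1975 with TMM, and 1.48, 1.02 and -0.55 with mitochondrial genes left out before scaling. With library totals it was 0.54, 1.15 and -0.96. In bulk RNA, a change in the number of cells that make these mRNAs and a change in the amount per cell cannot be told apart.

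Histone genes as a whole held more counts with AL-X in A549 and HCC827 and a similar number in H1975. Of every 1000000 counts in a library, 393 fell on histone genes in A549 with AL-X and 144 with DMSO, 380 in HCC827 with AL-X and 128 with DMSO, and 319 in H1975 with AL-X and 365 with DMSO. After TMM scaling the 70 genes summed to 708.9 CPM with AL-X and 130.1 CPM with DMSO in A549, to 298.9 and 110.2 CPM in HCC827, and to 353.9 and 304.8 CPM in H1975. In H1975 the 2 scalings gave opposite directions for the sum. Without H2BC12, the gene with the most counts, the sums were 385.7 CPM with AL-X and 106.0 CPM with DMSO in A549, 252.7 and 82.7 CPM in HCC827, and 213.7 and 265.8 CPM in H1975, so that the higher sum in H1975 rested on H2BC12.

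**Figure D1:**
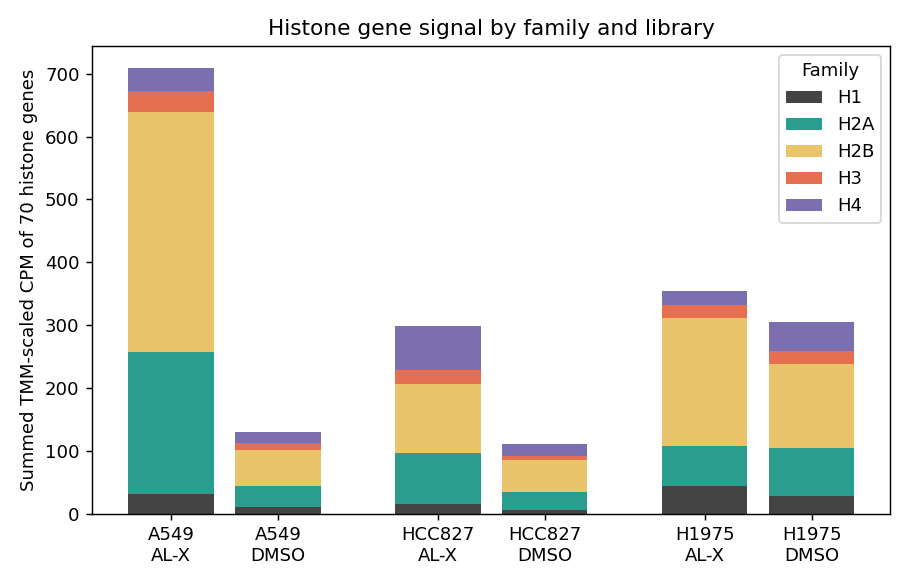
Summed TMM-scaled CPM of the 70 histone genes by family (stacked colours) in each of the 6 libraries, with AL-X left of DMSO in each line; 1 library per bar, so no error bar. The A549 AL-X bar reaches 708.9 CPM against 130.1 CPM with DMSO, and the H1975 bars stand at 353.9 and 304.8 CPM.

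In A549 and HCC827 each family summed higher with AL-X, though a few genes held much of some sums, while H1975 differed by family. In A549 the H2B genes summed to 381.9 CPM with AL-X and 57.4 CPM with DMSO, of which H2BC12 held 323.2 and 24.1 CPM. The H2A genes summed to 224.9 and 34.2 CPM, of which the near-identical H2AC18 and H2AC19 held 149.6 and 4.74 CPM. In HCC827 the H2A genes stood at 81.1 CPM with AL-X and 28.3 CPM with DMSO, and the H4 genes at 70.4 and 18.7 CPM. Of the H4 sums there, H4C14 held 24.4 and 6.09 CPM and its copy H4C15 28.6 and 6.13 CPM. In H1975 the H4 genes were lower with AL-X, at 22.7 CPM against 45.3 CPM with DMSO, and the H1 genes were higher, at 44.2 CPM against 28.0 CPM. The H3 genes, which supply the canonical H3 of new nucleosomes, stood at 33.5 CPM with AL-X and 10.5 CPM with DMSO in A549, 22.5 and 6.15 CPM in HCC827, and 20.6 and 21.7 CPM in H1975.

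Most single histone genes had low counts. Of the 70, 28 stayed under 1 CPM in every library, 24 reached 5 CPM in some library, and H2BC1, a testis histone gene, had 0 counts throughout. The filter on low counts left 54 genes for the test across lines, and no gene among the other 16 exceeded 40 counts in any library. With no replicate within a line, a gene was counted as differing there when its fold was 2 or larger and the higher of its libraries held no less than 5 CPM.

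In A549, 13 of the 18 histone genes at 5 CPM were higher with AL-X, where 30.0% of all genes at that level were, and 2 were lower, where 31.4% of all genes were. In HCC827, 11 of 16 were higher and none lower, against 10.7% and 17.2% of all genes. In H1975, 3 of 19 were higher and 5 lower, against 15.4% and 17.7% of all genes. H1-2, H2AC18, H2AC19 and H4C8 were higher in both A549 and HCC827. The 3 genes higher in H1975 were H2BC11, H2BC12 and H4C9, each of which was also higher in A549. With library totals as the only scaling, 6 were higher and 3 lower in A549 (12.6% and 51.9% of all genes), 13 and 0 in HCC827 (13.8% and 15.1%), and 1 and 10 in H1975 (6.91% and 28.2%). At a minimum of 1 CPM, 20 of 32 histone genes were higher and 3 lower in A549 (28.8% and 35.1% of all genes), 19 of 31 higher and none lower in HCC827 (12.7% and 20%), and 7 of 37 higher and 14 lower in H1975 (14.7% and 23.2%). A gene can reach either minimum through its higher library alone, as H2AC18 did at 5 CPM in A549. Counts by this rule therefore only describe the genes and test nothing.

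By sign alone, the most frequent pattern was a log2 fold above 0 in A549 and HCC827 and below 0 in H1975, held by 21 of the 54 genes and by 7.06% of all genes tested. A further 15 were above 0 in all 3 lines (16.8% of all genes), 9 in HCC827 alone (15.7%) and 4 in A549 and H1975 (12.8%). Only H1-3 was below 0 in all 3 lines, a pattern of 25.4% of all genes tested. HCC827 and H1975 were above 0 without A549 for 2 genes (5.43%), A549 alone for 1 (5.28%) and H1975 alone for none (6.37%), and H2BC26 had no counts in H1975. Under library totals 12 signs of a gene in a line turned, 7 of them in A549, and the first pattern held 16 genes (5.56% of all genes), all 3 lines above 0 held 14 (11.2%) and HCC827 alone 18 (26.3%). Because the 54 genes passed a filter that a gene high in 1 treatment can pass through that treatment, these counts describe the genes and are not a test.

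**Figure D2:**
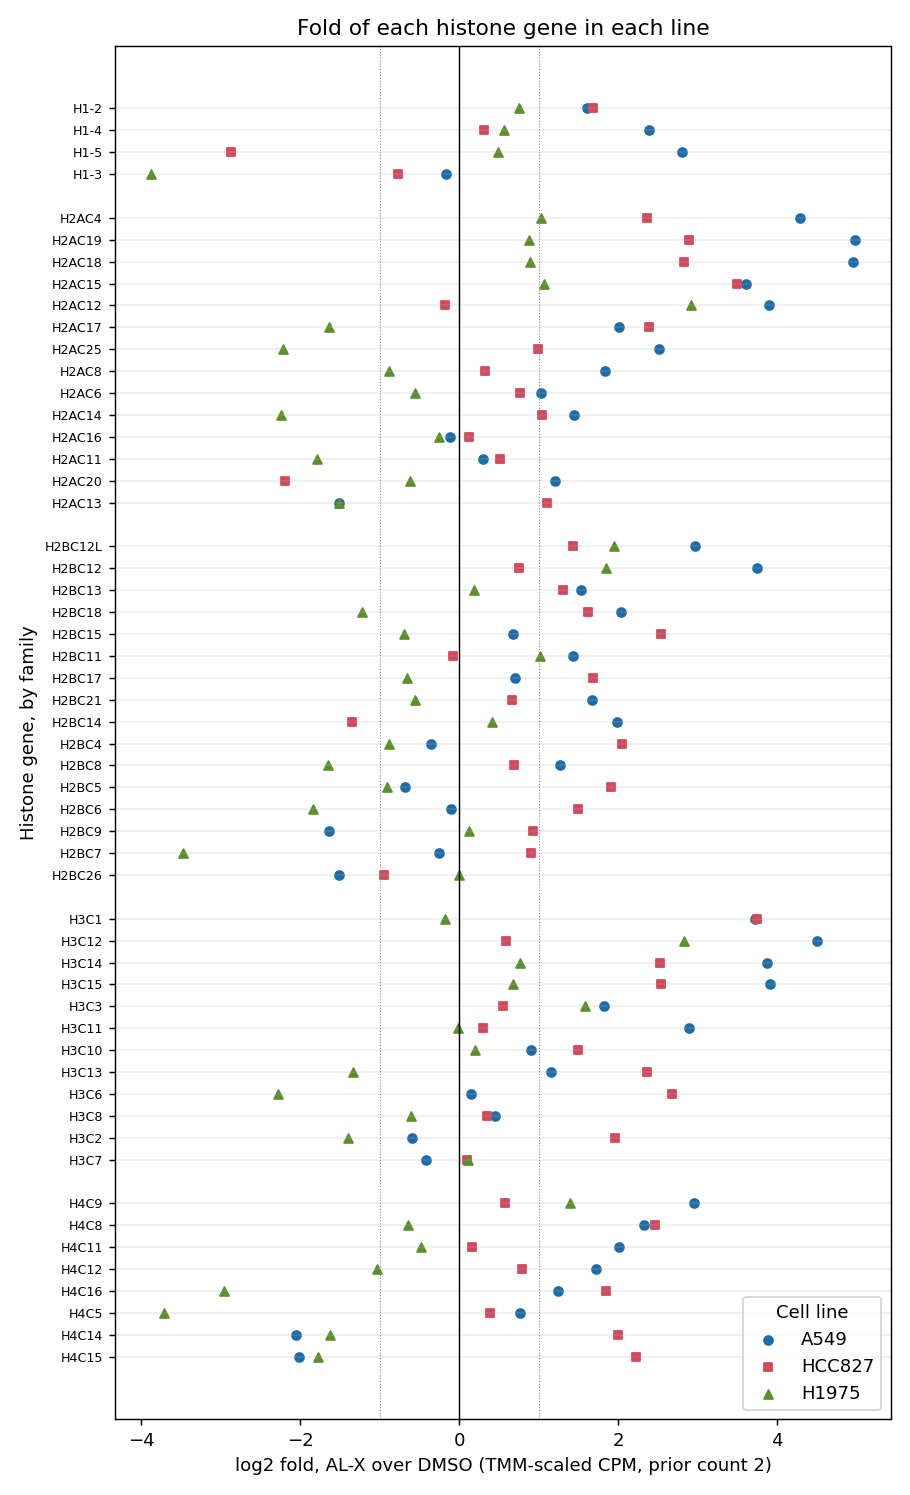
Log2 fold of AL-X over DMSO for each of the 54 histone genes tested (rows, grouped by family), with 1 marker per cell line and dotted lines at 2-fold in either direction; there is 1 library per arm, so no error bar, and H2BC26 is at 0 in H1975 because both its libraries had no counts. Markers of A549 and HCC827 lie mostly right of 0 and those of H1975 mostly left, with H2AC18 reaching 4.96 in A549.

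Across the 3 lines, no histone gene passed edgeR's quasi-likelihood test with Benjamini-Hochberg adjustment at 0.05 in either direction, where 0.0983% of the 20344 genes tested passed as higher and 0.157% as lower. At an unadjusted p under 0.05, 8 histone genes were higher (H1-2, H2AC15, H2AC18, H2AC19, H2BC12, H3C12, H3C14 and H3C15) and none lower, against 5.48% and 10.2% of all genes. DESeq2 called 7 of these 8, all but H1-2, where it called 3.07% of all genes as higher, and limma-voom called H2AC18, H2AC19 and H2BC12, where it called 1.44%. Neither called a histone gene lower, where DESeq2 called 7.08% and limma-voom 1.6% of all genes. With H1975 left out, edgeR called H2AC18 and H2AC19. The median across-line log2 fold was 0.58 over the 54 histone genes and -0.27 over all genes tested. H2AC15 and H3C12 are named here after their values were seen, and H3C12 shares 40.9% of its stretches of 50 bases with H2AC17, which it overlaps. With near-identical copies (H2AC18 with H2AC19, H3C14 with H3C15) counted once, 6 histone genes were higher at an unadjusted p under 0.05 in edgeR.

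Among H2A genes, H2AC18 and its copy H2AC19 in the 1q21 cluster had the largest log2 folds in A549. H2AC18 (ENSG00000203812, chr1:149842188-149842736, minus strand, a single exon in GENCODE 29) had 5041, 2376 and 1431 counts with AL-X in A549, HCC827 and H1975, against 291, 394 and 954 counts with DMSO. This was 74.8, 19.04 and 14.1 CPM with AL-X and 2.39, 2.67 and 7.61 CPM with DMSO. The AL-X libraries all stood above the DMSO libraries, and the H1975 DMSO library was the highest of its group. The log2 folds were 4.96, 2.82 and 0.89 in the same order, and the across-line value of 2.89 (SE 0.83, 3 lines) had an edgeR adjusted p of 0.160.

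H2AC19 had nearly the same counts as H2AC18, whose count was 0.989 to 1.03 times that of H2AC19 in every library, and 97.1% of the H2AC19 stretches of 50 bases also occur in H2AC18. The authors' counting could have split shared reads between them, so the pair gives 1 measurement. The same holds for H3C14 with H3C15, whose annotated transcripts share all 50-base stretches, and for H4C14 with H4C15, which share 97.5% and 97.2%. In all, 18 histone genes share 10% or more of such stretches with another histone gene.

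H2AC6, an H2A gene with a spliced model that spans chr6:26124145-26139116, ran less evenly across the lines. It stood at 37.1, 18.3 and 24.9 CPM with AL-X in A549, HCC827 and H1975, against 18.2, 10.8 and 36.5 CPM with DMSO. The groups overlapped, and H1975 had the opposite direction, with log2 folds of 1.03, 0.76 and -0.55. In A549 the log2 fold of H2AC6 was 0.025 with library totals as the only scaling, short of 2-fold. The across-line log2 fold was 0.42 (SE 0.56, adjusted p = 0.717, edgeR) and -0.01 under that scaling.

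H2AC4 had the highest fitted across-line fold of the H2A genes, 3.65 on the log2 scale, but on few reads. It had 54, 9 and 15 counts with AL-X in A549, HCC827 and H1975, against 3, 0 and 8 counts with DMSO. In HCC827 it was 3.54-fold higher when set against a floor of 3 counts in the DMSO library, which leaves out the counting error of the AL-X count. The 95% interval of the log2 count ratio began at 1.22 in HCC827, with no upper end. In A549 it ran from 3.40 to 7.35. At the other end, H2AC13 stood at 0.594, 2.12 and 1.45 CPM with AL-X and 1.72, 0.977 and 4.16 CPM with DMSO, lower in A549 and H1975 and higher in HCC827. H2AC11 stood at 4.79, 7.15 and 3.66 CPM with AL-X and 3.89, 4.99 and 12.6 CPM with DMSO, and its log2 fold of -1.79 in H1975 was among the lowest there at 5 CPM.

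Among H2B genes, H2BC12 took more counts than any other histone gene in each of the 6 libraries, with no correction for length. It shares 74.1% of its stretches of 50 bases with other histone genes, and 61.45% with H2BC12L on chromosome 21. Its counts may therefore hold reads of those genes. H2BC12 (ENSG00000197903, chr6:27146418-27146798, minus strand) had 21773, 5761 and 14194 counts with AL-X in A549, HCC827 and H1975, against 2939, 4048 and 4882 counts with DMSO. In CPM this was 323.2, 46.2 and 140.3 with AL-X and 24.1, 27.5 and 38.9 with DMSO, with every AL-X library above every DMSO library. The log2 folds were 3.74, 0.75 and 1.85, and the across-line value was 2.09 (SE 0.63, adjusted p = 0.174, edgeR).

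H2BC12 took 45.6% of all histone counts in A549 with AL-X (exact 95% interval 45.1 to 46.04) and 18.5% with DMSO (17.9 to 19.1), and 39.6% (39.1 to 40.1) and 12.8% (12.4 to 13.1) in H1975. In HCC827 it took less with AL-X, 15.4% (15.1 to 15.8) against 24.9% (24.3 to 25.6) with DMSO. These intervals cover counting error only, not reads shared with other histone genes. The share of histone reads on this gene therefore moved in opposite directions in HCC827 and in the other two lines.

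H2BC12L on chromosome 21 shares 49.6% of its 50-base stretches with H2BC12, so its counts may hold reads of that gene. It had 194, 86 and 154 counts with AL-X against 43, 36 and 48 with DMSO, and log2 folds of 2.97, 1.43 and 1.94 in A549, HCC827 and H1975. H2BC11, at chr6:27125897-27132750, stood at 6.04, 1.95 and 8.09 CPM with AL-X and 2.23, 2.06 and 3.99 CPM with DMSO, higher in A549 and H1975 and level in HCC827. H4C9, a histone H4 gene between these positions (chr6:27138588-27139881), shared that order of lines, at 15.8, 2.86 and 7.16 CPM with AL-X and 2.02, 1.92 and 2.70 CPM with DMSO. The RefSeq models of H2BC12 and H4C9 overlap and the strand setting is not given in the sources used here, so reads of the 2 genes cannot be told apart where they overlap.

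Other H2B genes ran differently. H2BC5 had 505, 1453 and 1439 counts with AL-X in A549, HCC827 and H1975, against 1470, 454 and 3354 counts with DMSO. It was higher in HCC827 and lower in A549 and H1975, with log2 folds of 1.91, -0.69 and -0.91 in that order. Its across-line log2 fold of 0.05 (SE 0.74, adjusted p = 0.980, edgeR) was -0.45 with library totals as the only scaling. H2BC21, whose annotated transcript continues far past the stem-loop printed above, stood at 26.9, 9.64 and 16.6 CPM with AL-X and 8.42, 6.09 and 24.4 CPM with DMSO, higher in A549 and HCC827 and lower in H1975.

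H2BC26 and H2BC8 were each at or near 0 counts in 1 line. H2BC26 at 1q42 had 22 and 67 counts with AL-X in A549 and HCC827, against 118 and 155 with DMSO, and 0 counts in both H1975 libraries. A count of 0 allows up to 0.0268 CPM of the library total in the H1975 AL-X library and 0.0287 CPM in the DMSO library. H2BC8 had 7 counts with AL-X and 4 with DMSO in A549, while in H1975 it had 208 with AL-X and 815 with DMSO. In HCC827 it had 435 with AL-X and 317 with DMSO. The across-line log2 fold of H2BC8, 0.15 (SE 0.99, adjusted p = 0.953, edgeR), was -0.21 with library totals as the only scaling.

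**Figure D3:**
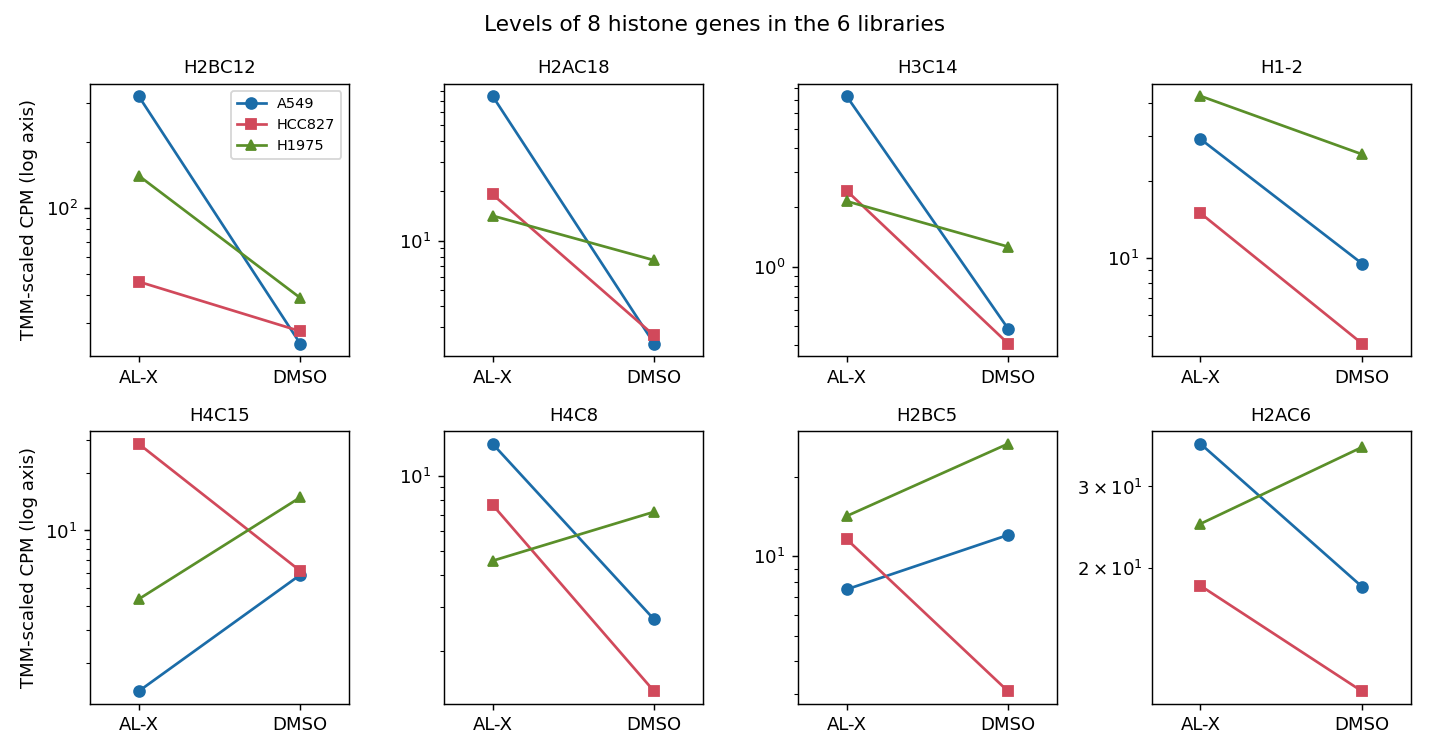
TMM-scaled CPM on a log axis of 8 histone genes in the AL-X and DMSO libraries, 1 point per library, with lines joining the libraries of a cell line. H2BC12, H2AC18, H3C14 and H1-2 are higher with AL-X in each line, while H4C15, H4C8, H2BC5 and H2AC6 differ in direction between lines.

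H1 linker histones bind DNA where it enters and leaves the nucleosome, and H1-2 held nearly all of their counts. H1-2 (ENSG00000187837, chr6:26055787-26056428, minus strand) stood at 29.1, 14.97 and 42.8 CPM with AL-X in A549, HCC827 and H1975, against 9.53, 4.65 and 25.4 CPM with DMSO. It was higher with AL-X in each line, but the HCC827 AL-X library lay below the H1975 DMSO library. The log2 folds were 1.61, 1.68 and 0.75, and the across-line value was 1.35 (SE 0.55, adjusted p = 0.269, edgeR).

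H1-4 had 150, 29 and 88 counts with AL-X and 50, 27 and 73 counts with DMSO in A549, HCC827 and H1975, and the 95% interval of its log2 count ratio ran from 1.97 to 2.93 in A549, from -0.46 to 1.16 in HCC827 and from 0.11 to 1.05 in H1975. H1-3 had 22, 21 and 11 counts with AL-X against 45, 44 and 231 counts with DMSO. Its log2 fold of -3.88 in H1975 (95% interval of the count ratio -5.11 to -3.22) was the lowest of the 54 histone genes in that line, at a level of at most 1.84 CPM. The across-line value for H1-3 was -1.57 (SE 1.33, adjusted p = 0.567, edgeR).

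Among H3 genes, H3C14 and its copy H3C15 in the 1q21 cluster ran with H2AC18. H3C14 had 493, 303 and 217 counts with AL-X in A549, HCC827 and H1975, against 59, 60 and 158 counts with DMSO. Every AL-X library stood above every DMSO library after scaling, with the H1975 DMSO library the highest of its group. The log2 folds of H3C14 were 3.87, 2.53 and 0.76, and the across-line value was 2.43 (SE 1.04, adjusted p = 0.289, edgeR).

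H3C6 at chr6:26224199-26227473 stood at 5.12, 7.72 and 0.939 CPM with AL-X and 4.61, 1.19 and 4.64 CPM with DMSO. It was higher in HCC827 and lower in H1975, and its small positive log2 fold of 0.15 in A549 was -0.85 with library totals. H3C10 stood at 5.42, 5.63 and 7.48 CPM with AL-X and 2.88, 1.98 and 6.53 CPM with DMSO, with log2 folds of 0.91, 1.5 and 0.20, of which those in A549 and H1975 were -0.09 and -0.21 with library totals. H3C1 had 29, 61 and 14 counts with AL-X against 2, 3 and 20 with DMSO, and the 95% intervals of its log2 count ratio ran from 2.73 to 7.83 in A549 and 2.97 to 6.90 in HCC827. H3C7 had at most 32 counts in any library, and its intervals spanned 0 in each line.

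Among H4 genes, H4C14 and H4C15 in the 1q21 cluster ran against their neighbours H2AC18 and H3C14 in A549 and H1975. H4C15 (ENSG00000270276, chr1:149854045-149861210, minus strand) had 96, 3569 and 440 counts with AL-X in A549, HCC827 and H1975, against 711, 904 and 1871 counts with DMSO. In CPM this was 1.43, 28.6 and 4.35 with AL-X and 5.83, 6.13 and 14.9 with DMSO. The HCC827 AL-X library was the highest of the 6, and the A549 AL-X library the lowest. The log2 folds were -2.02, 2.22 and -1.78, and the across-line value was -0.72 (SE 0.98, adjusted p = 0.724, edgeR). H4C14 followed it, with log2 folds of -2.05, 2.00 and -1.62.

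In GENCODE 29 the spliced model of H4C14 overlaps H3C14, and that of H4C15 overlaps H3C15. The overlapping genes did not share a direction in A549, where H3C14 was higher with AL-X and H4C14 lower. H4C8 at chr6:26277609-26285638 stood at 13.4, 7.66 and 4.58 CPM with AL-X and 2.67, 1.38 and 7.18 CPM with DMSO, higher in A549 and HCC827 and lower in H1975. H4C9, described above, was higher in all 3 lines, with log2 folds of 2.95, 0.57 and 1.40 and an across-line value of 1.64 (SE 0.82, adjusted p = 0.352, edgeR).

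Whether a line differed from the other two was tested with an interaction term in edgeR, which leaves 1 residual degree of freedom. No histone gene passed at an adjusted p of 0.05 for A549, HCC827 or H1975, where 0.28%, 0.261% and 0.0% of all genes passed. At an unadjusted p under 0.05 there were 3 histone genes for A549 (H2AC18, H2AC19 and H2BC12), 4 for HCC827 (H2BC5, H3C6, H4C14 and H4C15) and 1 for H1975 (H2AC25, named here after its values were seen), where 11.0%, 8.19% and 1.16% of all genes were. H4C15 differed in HCC827 by 4.13 on the log2 scale (SE 1.48, adjusted p = 0.277, edgeR), and the H2AC25 value rests on 0 counts with AL-X and 8 with DMSO in H1975. The differences in direction between lines given above are therefore differences between single pairs of libraries.

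By position, H2BC12 had more CPM than the other distal chromosome 6 genes summed in each AL-X library. The distal genes summed to 377.3 CPM with AL-X and 41.5 CPM with DMSO in A549, 86.8 and 45.0 CPM in HCC827, and 178.1 and 81.0 CPM in H1975. Without H2BC12, left out after the values were seen, they summed to 54.1 CPM with AL-X and 17.4 CPM with DMSO in A549, 40.7 and 17.6 CPM in HCC827, and 37.8 and 42.0 CPM in H1975, where the direction turned. The 1q21 genes summed to 201.5 CPM with AL-X and 27.6 CPM with DMSO in A549, 111.0 and 26.3 CPM in HCC827, and 61.6 and 79.4 CPM in H1975. Of the 1q21 sum in A549, H2AC18 and H2AC19 held 149.6 CPM with AL-X and 4.74 CPM with DMSO. In HCC827 with AL-X that pair held 38.3 CPM, H4C14 24.4 CPM and H4C15 28.6 CPM. The proximal chromosome 6 genes summed to 105.5 CPM with AL-X and 55.8 CPM with DMSO in A549, 87.9 and 32.4 CPM in HCC827, and 112.5 and 142.1 CPM in H1975. The 2 genes at 1q42, H2AC25 and H2BC26, had no counts in H1975 with AL-X and 8 with DMSO.

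H2A and H2B genes often lie head to head and share a promoter region, and 11 such pairs lie 219 to 331 bases apart. Among pairs in which both genes reached 20 counts in a library of the line, 5 of 8 had the same sign of fold in A549, 4 of 8 in HCC827 and 5 of 9 in H1975. H2AC12 with H2BC12 had close log2 folds in A549, 3.89 and 3.74. H2AC25 with H2BC26 had opposite ones there, 2.52 and -1.52, and so had H2AC11 with H2BC11 in H1975, at -1.79 and 1.02. Pairs other than those of named genes were picked here after their values were seen.

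**Figure D4:**
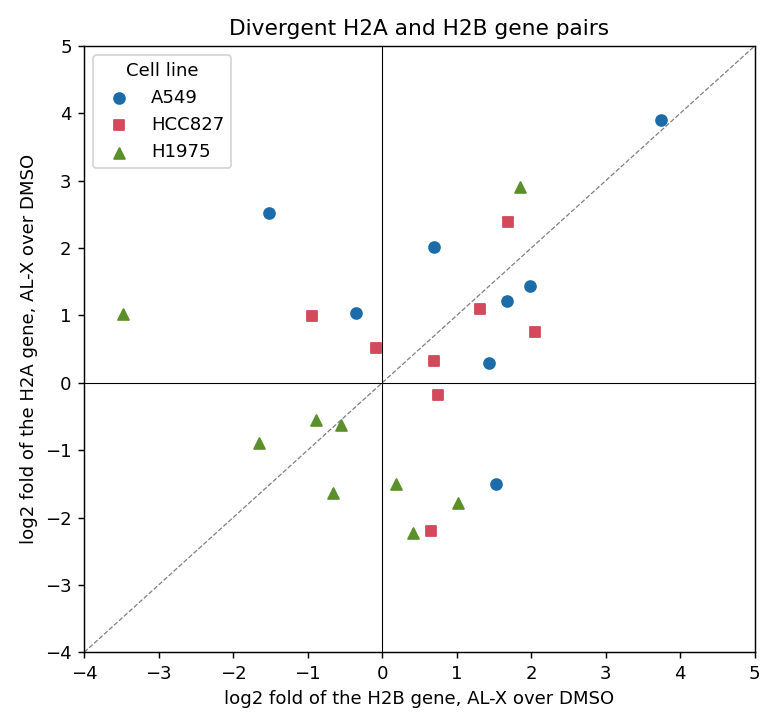
Log2 fold of the H2A gene (vertical) against that of the H2B gene (horizontal), AL-X over DMSO, for head-to-head pairs in which both genes reached 20 counts, with 1 marker per pair and cell line and a dashed line at equal folds. Points lie in all 4 quadrants, from H2AC12 with H2BC12 in A549 at 3.89 and 3.74 to H2AC25 with H2BC26 in A549 at 2.52 and -1.52.

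Genes annotated with a long or spliced transcript, or with a RefSeq span of over 1000 bases, were set apart from those with a short single exon, and 15 of these 27 extended models hold a match to the stem-loop. The genes with an extended model held 68.0% of histone counts with AL-X and 79.8% with DMSO in A549, 73.7% and 81.1% in HCC827, and 75.6% and 79.6% in H1975. The 43 short genes summed to 226.7 CPM with AL-X and 26.3 CPM with DMSO in A549, 78.5 and 20.8 CPM in HCC827, and 86.3 and 62.3 CPM in H1975. H2AC18 and H2AC19 held 149.6 of the 226.7 CPM in A549. That pair was also left out after the values were seen. Without it the short genes held 13.8% of histone counts with AL-X and 17.2% with DMSO in A549. They held 15.4% and 14.8% in HCC827, and 17.8% and 16.2% in H1975. These shares also depend on H2BC12, which was classed as extended although its annotated transcript has 381 bases. H2BC12 held 45.6% of all histone counts in A549 with AL-X and 18.5% with DMSO. Shares without both H2BC12 and the pair were not compared, so the higher share in A549 cannot be put down to the pair alone. Annotated length says nothing of which transcript form these reads came from, and poly(A) status was not measured.

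RNAs that have no poly(A) tail give a measure beside this. Of 22 listed (among them RN7SK, RMRP, RPPH1 and the 7SL RNAs), 11 passed the filter, and their log2 folds had medians of 1.68 for A549, -0.89 for HCC827 and 2.04 for H1975. RN7SK, which holds the elongation factor P-TEFb inactive, had 1441, 3561 and 4121 counts with AL-X in A549, HCC827 and H1975, against 121, 850 and 220 with DMSO. Its across-line log2 fold of 3.78 (SE 0.72) had an adjusted p of 0.061 in edgeR. RMRP, the RNA of RNase MRP, had 220, 43 and 347 counts with AL-X and 119, 121 and 57 with DMSO, and RPPH1, the RNA of RNase P, had 266, 66 and 248 with AL-X and 72, 87 and 59 with DMSO. The median of the list was thus above 0 in A549 and H1975 and below 0 in HCC827, where 4 of the 11 genes, RN7SK among them, were above 0. By the median, this order of lines was unlike that of the histone genes. The part of these RNAs in the histone values was not tested.

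Of 23 genes for histone transcription and end processing, none passed the adjusted test in edgeR, and the median across-line log2 fold was 0.45. At an unadjusted p under 0.05, 1 was higher and 1 lower, where 5.48% and 10.2% of all genes were. ZNF473, a zinc finger protein of the U7 snRNP complex, had 27101, 6184 and 6558 counts with AL-X in A549, HCC827 and H1975, against 1820, 1521 and 1387 with DMSO. The AL-X libraries all stood above the DMSO libraries, with an across-line log2 fold of 3.15 (SE 0.62, adjusted p = 0.065, edgeR). SLBP had 17870, 7512 and 14794 counts with AL-X and 5848, 9563 and 7469 with DMSO, with log2 folds of 2.47, -0.11 and 1.29. NPAT had log2 folds of 0.77, 0.11 and -2.06, and CASP8AP2 (FLASH), which acts in histone transcription and end processing, 0.11, -0.19 and -1.35 in A549, HCC827 and H1975. LSM11, a U7-specific ring protein, was below 0 in each line, at -0.54, -0.82 and -1.16.

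Histone mRNA decay genes (18 tested) had a median across-line log2 fold of 0.40 and histone chaperones (22 tested) one of -0.03, with none past the adjusted test in edgeR. In the chaperone list, 1 gene was higher and 1 lower at an unadjusted p under 0.05, and in the decay list none. Of all genes, 5.48% were higher and 10.2% lower at that level. TUT4, a uridyl transferase of the decay list, had -1.03 (SE 0.47, adjusted p = 0.320, edgeR) and TUT7, a related enzyme, 1.18 (SE 0.55, adjusted p = 0.330). CHAF1A, the large subunit of the chromatin assembly factor CAF-1, stood below 0 in each line at -0.98, -0.85 and -0.42, and NASP, which holds soluble H3 and H4, at 2.70, -1.35 and 0.81.

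S phase genes did not follow the histone genes in HCC827. Of 25 S phase and cyclin genes, 17 were lower there at 2-fold and 5 CPM and none higher, where 17.2% and 10.7% of all genes were, while 7 were higher and 3 lower in A549 (30.0% and 31.4% of all genes) and 3 higher and 2 lower in H1975 (15.4% and 17.7%). Their log2 folds had medians of 0.51 for A549, -1.22 for HCC827 and 0.35 for H1975. CCNE1, cyclin E1, had 61475, 2200 and 12343 counts with AL-X against 2242, 1663 and 2027 with DMSO, and CCNE2 had log2 folds of 3.84, -1.16 and 0.57. CCNA2, cyclin A2, was below 0 in each line at -0.52, -1.93 and -1.01, and PCNA, the replication clamp, stood at 0.66, -1.5 and 0.47. No gene of the list passed the adjusted test across lines in edgeR, where E2F2 had -4.05 (SE 0.83, adjusted p = 0.079). At an unadjusted p under 0.05, 1 gene was higher and 2 lower, where 5.48% and 10.2% of all genes were.

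Replication-independent histone variants, which are mostly polyadenylated and also made outside S phase, gave another order. Of 12 listed, 11 were tested and none passed the adjusted test in edgeR. At an unadjusted p under 0.05, 3 were lower and none higher, where 10.2% and 5.48% of all genes were. Those 3 are not among the genes given below. By across-line log2 fold, 7 of the 11 were above 0 and 4 below. In all 3 lines, 1 was above 0 and 4 were below 0, patterns of 16.8% and 25.4% of all genes tested. H2AX, whose phosphorylation marks DNA breaks, had log2 folds of 3.81, 0.01 and 0.71 in A549, HCC827 and H1975, H2AZ1 3.69, -1.0 and 1.31, H3-3A 2.66, -0.88 and 1.44, and H3-3B 3.31, -0.39 and 1.03. H2AJ stood at 0.82, -0.44 and -0.14, and MACROH2A1 between -0.18 and -0.01. In HCC827 the variants had a median log2 fold of -0.88, against 1.02 for the clustered histone genes.

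**Figure D5:**
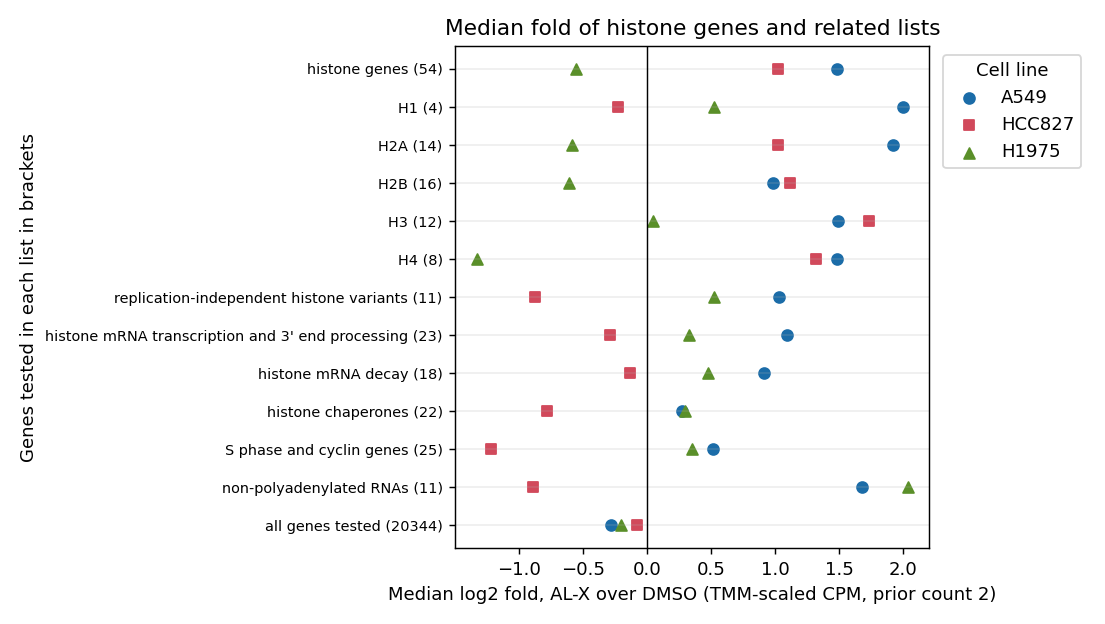
Median log2 fold of AL-X over DMSO in each cell line for the histone genes, their 5 families, 6 related lists and all genes tested (rows, with the number of genes in brackets); 1 library per arm, so no error bar. The HCC827 marker lies at 1.02 for the histone genes and below 0 for each of the 6 related lists.

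The family medians in that plot were 2.00, 1.92, 0.99, 1.49 and 1.48 for H1, H2A, H2B, H3 and H4 in A549. In HCC827 they were -0.23, 1.02, 1.12, 1.73 and 1.32, and in H1975 0.52, -0.59, -0.61, 0.05 and -1.33. With library totals as the only scaling they were 1.00, 1.13, 0.07, 0.51 and 0.51 in A549, -0.11, 1.15, 1.25, 1.87 and 1.45 in HCC827, and 0.14, -0.99, -1.01, -0.31 and -1.73 in H1975, where the sign of H3 turned.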

How the data were processed

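The authors deposited whole-number counts per Ensembl gene, 1 table of 60671 genes and 6 columns. Per the submitters' processing notes, bcl2fastq 2.20 and the GRCh38 build were used. The aligner, the counter, its strand option, the annotation release and barcode handling were not given in the sources used here. Symbols came from a table of gene names, those of H2AC18 and H2AC19 from GENCODE 29 names through RefSeq synonyms, and positions from GENCODE 29 (68 of 70 genes). The counts may rest on another release.

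Counts were fitted with edgeR 4.0.16 in R 4.3.3 (alternatives: limma 3.58.1, DESeq2 1.42.0) with TMM scaling, filterByExpr on treatment and a robust quasi-likelihood test, with the cell line of the labels as a block that pairs libraries. P-values were adjusted over 20344 genes at 0.05, on 2 residual degrees of freedom, and reflect only how these lines vary. Folds within a line are log2 ratios of TMM-scaled CPM with a prior count of 2, which understates low genes. Exact binomial 95% intervals and floors of 3 counts cover counting error only. Genes were named by rule: in each family the highest 3 by mean CPM and both ends of the fold, in each line the 3 most raised and lowered, and fixed list genes. Members and lists were chosen with earlier results of these data known. Figures were drawn with matplotlib 3.10.9. The values of 1 gene of the histone variant list are not reported here.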

Additional observations from a re-analysis of the deposited data

How the results depend on the processing

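The count of histone genes past the adjusted test across lines was 0 with edgeR under every other scaling, filter and shrinkage run, 7 with DESeq2, 3 with limma-voom and 0 to 2 when a line was left out, with the 2 calls made without H1975. Pairing by cell line comes from the labels, and without the replicate block the count stayed at 0. The other edgeR settings gave 3 to 8 genes at an unadjusted p under 0.05. Counts within lines moved more. With library totals as the only scaling, 6 genes were higher in A549, and 1 was higher and 10 lower in H1975. At 1 CPM instead of 5, 20 were higher in A549, 19 in HCC827 and 7 in H1975, with 14 lower in H1975. At 1.5-fold, 6 were higher and 9 lower in H1975, and at 4-fold 7 were higher in HCC827 and none higher (0) or lower (0) in H1975. Shares over all genes are not given for these 1.5-fold and 4-fold counts or for the unadjusted counts of the other edgeR settings. They therefore show only how the counts moved and cannot be set against all genes. With near-identical pairs counted once, a setting chosen after seeing the data, 11 genes were higher and 1 lower in A549. Under that setting 9 were higher in HCC827, and 3 were higher and 4 lower in H1975.

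Over the 54 histone genes, the across-line log2 fold changed sign for 10 with library totals, 4 with limma-voom and 0 with DESeq2. It changed for 15 of 55 without A549, 11 of 57 without HCC827 and 7 of 53 without H1975. Each of these was smaller than its SE before, and the cause was not tested. Among the genes named by rule, the values with library totals were -0.015 for H2AC6, -0.45 for H2BC5, -0.21 for H2BC8 and -0.42 for H3C6. With limma-voom they were -0.033 for H2BC5 and -0.27 for H2BC8, and with no filter -0.067 for H2BC5. Without the block they were -0.33 for H2BC5, -0.62 for H2BC8, 0.032 for H3C7, 0.26 for H4C14 and 0.35 for H4C15. Leaving out a line in turn gave the ranges -0.78 to 0.41 for H2AC11, -0.84 to 0.61 for H2BC5, -0.43 to 1.11 for H2BC8, -1.11 to 1.42 for H3C6, -0.21 to 0.16 for H3C7, -1.88 to 0.24 for H4C14 and -1.94 to 0.27 for H4C15.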
